A study of Mus musculus with 4 samples.

Results

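Ribosomal protein pseudogenes are the genomic copies of ribosomal protein genes that annotation classes as pseudogenes. Here they were taken as the genes whose deposited biotype is a pseudogene and whose symbol begins with Rpl or Rps and carries the ending -ps, and 97 of the 19150 genes listed for all 4 libraries met that rule. The gene named before the ending is called the parent, and the 97 pseudogenes had 41 parents, 24 for proteins of the large (60S) ribosomal subunit and 17 for proteins of the small (40S) subunit. By subunit there were 55 large-subunit and 42 small-subunit pseudogenes. They lay on 20 chromosomes, 8 of them on the X. By the deposited biotype 92 were processed pseudogenes and 5 transcribed processed pseudogenes. A further 8 genes with such a symbol are annotated there as protein coding and were not included.

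The libraries were made from brain RNA of C57BL/6 mouse embryos at E13.5, with 2 knockout libraries (KO2 and KO4) and 2 wild-type libraries (WT6 and WT8). The knockout is of macroH2A, a histone variant with a large extra domain, and the labels do not say which of its genes, H2afy or H2afy2, was targeted, how the allele was made, or whether the embryos came from separate litters. The authors deposited the counts as 2 tables, each pairing 1 knockout library with 1 wild-type library (KO2 and WT6, KO4 and WT8). The p-values below measure only the spread between these libraries, which may in part be technical.

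A processed pseudogene arises when a messenger RNA is reverse transcribed and inserted elsewhere in the genome. The copy has no introns and usually no promoter of its own, and with time it gathers substitutions that set it apart from the parent. Ribosomal protein messages are abundant in every dividing cell, the germ line included, and have left more processed copies in mammalian genomes than most other gene families. A short read from a young copy can be identical to a read from the parent, so the split of reads between the copies depends on how the aligner and the counter treat reads with several matches. How that was done here is not given in the labels.

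Total counts per library were between 16470090 and 18136745. H2afy, the gene for macroH2A1, was at 1368 and 1267 reads in KO2 and KO4 and at 5538 and 5593 in WT6 and WT8, a log2 fold change of -2.22 (adjusted p = 0.00167, edgeR quasi-likelihood test with Benjamini-Hochberg adjustment), and it was the sole gene that passed among the 15708 tested. H2afy2 had a log2 fold change of 0.08. Transcripts from the Y chromosome were at 1 read in KO4 and WT8 (Kdm5d and Eif2s3y), where Xist had 8105 and 6094 reads. In KO2 and WT6 the Kdm5d counts were 729 and 624 and the Xist counts 6 and 19. Each deposited table therefore holds embryos of 1 sex, and sex and table cannot be told apart. All 6 progenitor and all 6 neuronal markers were present, with summed levels of 1938 to 2244 and 6127 to 6526 CPM (read counts scaled by library size).

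The pseudogenes with many reads were close copies of the parent coding sequence, and the sequences below show how close. Each pseudogene transcript was aligned to the coding sequence of its parent in GENCODE M21 (GRCm38). The most similar ribosomal protein gene was the named parent for 96 of the 97. Identity to the parent had a median of 99.0% and ran from 87.5% to 100% (n = 96). In 9 pseudogenes, with means of 88.0 to 1954 reads, the whole parent coding sequence was present with no mismatch and no gap: Rps16-ps2, Rpl31-ps8, Rps6-ps4, Rpl28-ps1, Rpl10a-ps1, Rpl38-ps2, Rpl36a-ps2, Rpl10-ps1 and Rpl15-ps3. For those 9, no base of the coding sequence tells a read of the pseudogene from a read of the parent. The stretches shown are 90 bases, 5′ to 3′ on the sense strand, with bases that differ between pseudogene and parent in capitals. The first is the start of the coding sequence (bases 1 to 90) of Rps16, for a small-subunit protein, and it is the same in Rps16-ps2.

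Rps16-ps2 and Rps16: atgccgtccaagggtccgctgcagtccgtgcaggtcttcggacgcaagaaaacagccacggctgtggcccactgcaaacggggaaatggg

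Rps10-ps2 is the pseudogene with the most reads. All 5 of its mismatches to Rps10, which encodes a protein of the small-subunit head, lie between bases 384 and 473 of the coding sequence, and the longest run without a mismatch is 392 bases.

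Rps10-ps2: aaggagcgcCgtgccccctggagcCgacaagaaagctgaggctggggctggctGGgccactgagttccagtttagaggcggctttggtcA
Rps10: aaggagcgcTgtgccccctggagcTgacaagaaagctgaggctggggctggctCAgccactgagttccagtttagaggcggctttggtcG

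Rps19-ps3 has the most reads of the pseudogenes under 98% identity. Its parent Rps19 encodes a small-subunit protein known for its mutation in Diamond-Blackfan anaemia, and bases 140 to 229 of the coding sequence hold 6 mismatches.

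Rps19-ps3: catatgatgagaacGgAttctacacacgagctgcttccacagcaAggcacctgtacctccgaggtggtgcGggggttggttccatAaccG
Rps19: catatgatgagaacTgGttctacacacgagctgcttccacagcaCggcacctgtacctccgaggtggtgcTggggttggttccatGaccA

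Listing in the tables went with similarity to the parent. GENCODE M21 annotates 294 genes that meet the rule. Of these, 96 are among the 97, 15 are in 1 of the 2 tables, 8 are in both tables under another symbol or biotype, and 175 are in neither. Among annotated copies with an identity of at least 98%, 80 of 95 (84.2%) were listed in both tables under any symbol or biotype, against 22 of 194 (11.3%) below that identity. Counting only the genes that met the rule, the numbers were 74 and 21. The copies in neither table had a median identity of 92.3% (71.8% to 100%, n = 172). The share of 50-base windows found in no other annotated transcript was a median of 25.4% in the 97 and 84.9% in the copies in neither table. Genomic sequence outside transcripts was not searched.

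**Figure D1:**
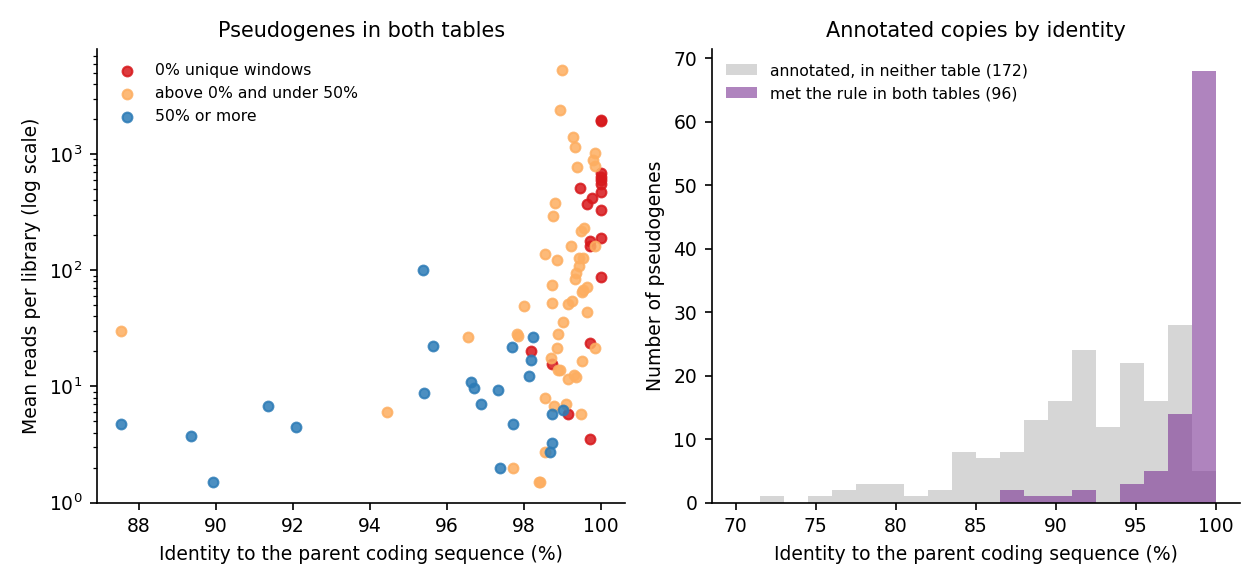
Left, mean reads per library (log axis) against identity to the parent coding sequence in percent, 1 point per pseudogene, coloured by its share of unique 50-base windows, with those under 98% identity at 99.5 reads or fewer. Right, number of annotated copies by identity, for 96 of the 97 pseudogenes and 172 copies in neither table, with the former gathered at 98% and above.

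Read counts also went with identity. The 22 pseudogenes under 98% identity had a median of 9.0 reads and at most 99.5, means over the 4 libraries, and the 74 at 98% or more had a median of 73.5 reads and at most 5293. Across pseudogenes, Spearman's rho of mean CPM with identity was 0.65 (n = 96), with the share of unique 50-base windows -0.61, and with the CPM of the parent 0.07. These are descriptions across genes that share libraries and, in families, a parent, and no p is given. The 20 pseudogenes without a single unique 50-base window held 34.7% of all reads of the group. The 54 with unique windows in under 50% of positions held 64.2%, and the 23 with at least 50% held 1.14%.

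A few pseudogenes held most of the reads. Rps10-ps2 alone took 20.1% of the reads of the 97, the top 4 took 43.9% and the top 12 took 72.0%. The median pseudogene had 28.5 reads, and no pseudogene was at 0 in any library. The Y-linked Kdm5d and Eif2s3y were also at 1 and not 0 in KO4 and WT8. Whether the deposited counts have a floor of 1 was not tested, so a count of 1 may not be a read. Of the 97, 74 passed the filter on low counts and 23, at means of 1.5 to 8 reads, did not.

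Rps10-ps2 (ENSMUSG00000099764, chromosome 16, 20822145 to 20822640, minus strand, GRCm38) had 5642 and 4895 reads in the knockout libraries KO2 and KO4, and 4923 and 5712 in the wild-type libraries WT6 and WT8. KO2 and WT8 were the high libraries and KO4 and WT6 the low ones, so the genotypes overlapped. Its log2 fold change was -0.16 ± 0.13 (SE; adjusted p = 0.758, edgeR quasi-likelihood test with Benjamini-Hochberg adjustment). Rpl14-ps1 (ENSMUSG00000046721, chromosome 7, 45324965 to 45325617, plus strand, in an intron of Trpm4), a copy of the gene for a large-subunit surface protein, had 2532, 2307, 2213 and 2507 reads in KO2, KO4, WT6 and WT8. Again KO2 and WT8 had the higher counts, and the log2 fold change was -0.11 ± 0.12 (SE).

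Rps16-ps2 (ENSMUSG00000060419, chromosome 5, 129128077 to 129128517, minus strand, in an intron of Adgrd1) had 2185, 1816, 1693 and 2120 reads in the same order of libraries. Rpl31-ps8 (ENSMUSG00000067870, chromosome 15, 90764279 to 90764656, minus strand), a copy of the gene for a protein at the nascent peptide exit tunnel, had 2111, 1739, 1654 and 2143. Both are identical to the parent coding sequence, and in both the 2 genotypes overlapped with the same pair of libraries on top. The log2 fold changes were -0.08 ± 0.16 for Rps16-ps2 and -0.13 ± 0.17 for Rpl31-ps8 (SE).

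The next pseudogenes by reads were Rpl17-ps10 (1567, 1141, 1200 and 1712 reads in KO2, KO4, WT6 and WT8), whose parent protein also lies at the exit tunnel, and Rpsa-ps10 (1232, 1066, 991 and 1343), the latter a copy of the gene for the small-subunit protein also known as the laminin receptor. Rpl3-ps1, a copy of the gene for a protein near the peptidyl transferase centre, had 1130, 844, 860 and 1252 reads. Rps27a-ps2, a copy of a gene whose product is made as a fusion with ubiquitin, had 924, 737, 731 and 1127. For all 4, WT8 was highest and KO2 second. The remaining pseudogenes among the 12 with most reads were Rpl9-ps4, Rpl21-ps15, Rps6-ps4 and Rpl28-ps1, with counts between 489 and 883 in single libraries. Rps6-ps4 copies the gene for the small-subunit protein phosphorylated by S6 kinase, and it had 812, 614, 564 and 760 reads. After scaling to CPM, WT8 was the highest library for all 12, while KO4 or WT6 was the lowest.

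**Figure D2:**
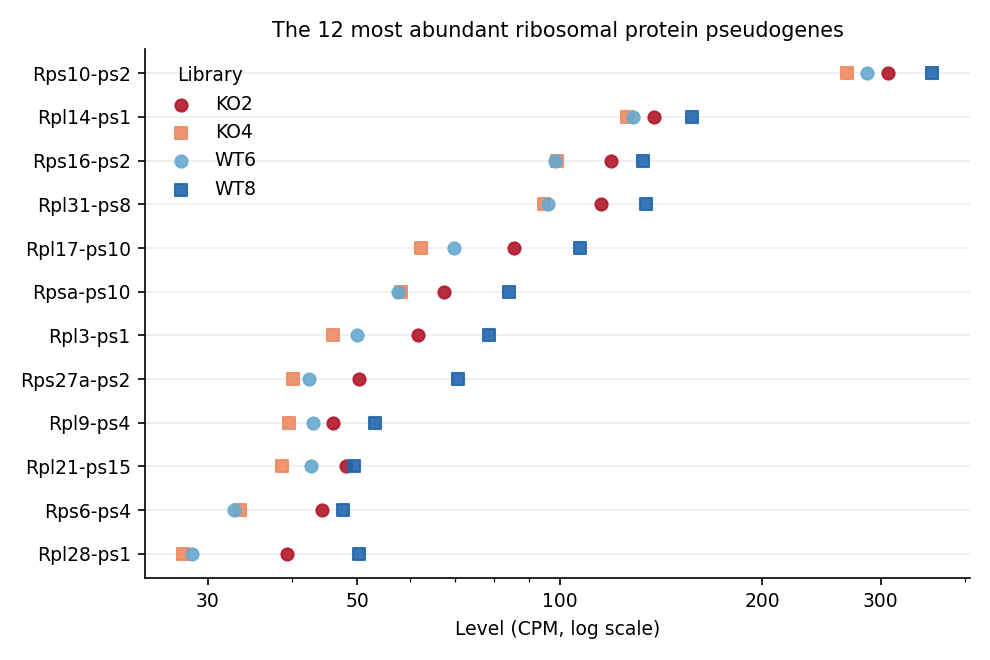
Level of the 12 pseudogenes with most reads in each library (CPM with TMM factors, log axis), 1 point per library. WT8 is the rightmost point for all 12, and KO4 and WT6 are the leftmost points, so the KO and WT libraries overlap in every row.

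Within a family of copies of the same parent, 1 pseudogene usually held most of the reads. There were 14 parents with at least 3 pseudogenes, 58 pseudogenes in all. In 12 of these families the top pseudogene held over 50% of the family's reads, and the top share ran from 41.4% to 99.1% with a median of 74.4%. In 13 of the 14, no other family member had a higher identity to the parent than the top one, ties included. The exception was the Rpl17 family, where Rpl17-ps10 held 74.3% of the reads at 99.28% identity and another copy reached 99.64%.

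Rpl31-ps8, with no mismatch, held 99.1% of the reads of 5 copies, and the others had means of 1.5 to 6.75 reads. Rps6-ps4 held 97.1% of the reads of 3 copies, Rpl36a-ps2 held 89.1% of 3 and Rpl21-ps15 held 84.0% of 4. The reads were spread more evenly over the copies of Rps15a, where Rps15a-ps6 held 41.4% of the reads of 5, and of Rpl35a, where Rpl35a-ps3 held 46.6% of 6. Rpl35a-ps3 had 217, 149, 136 and 211 reads in KO2, KO4, WT6 and WT8, and Rpl35a-ps2 had 200, 136, 132 and 175. These copies of the gene for a large-subunit protein both have 99.7% identity to Rpl35a and no unique 50-base window. Among parents with 2 copies, Rps10-ps2 held 93.4% and Rps27a-ps2 held 99.8% of the reads, the other copy of Rps27a having 3, 1, 1 and 1 reads.

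**Figure D3:**
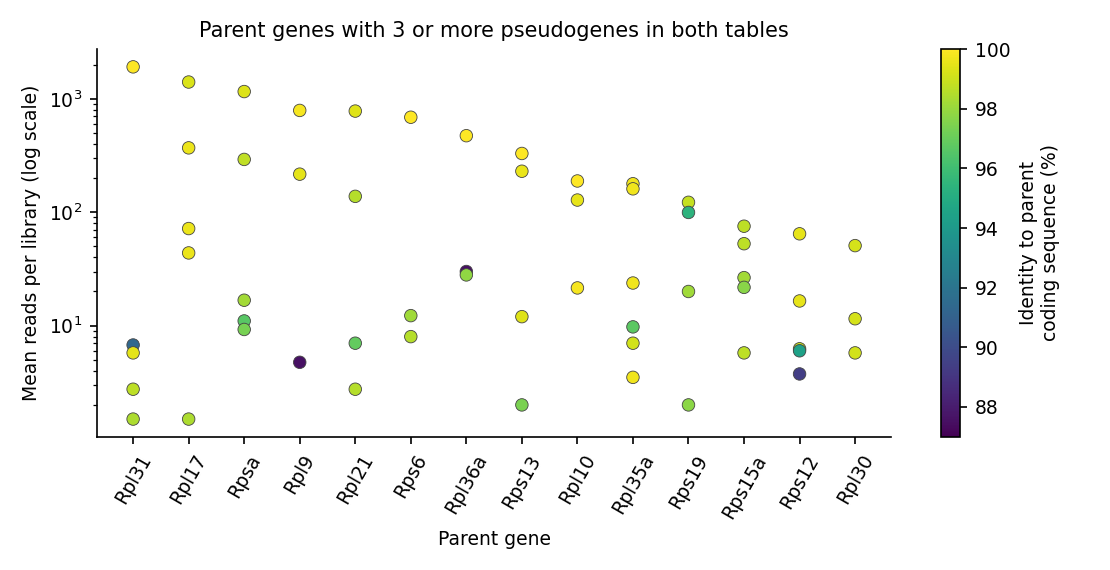
Mean reads over the 4 libraries (log axis) of each pseudogene in the 14 families with at least 3 copies, 1 point per pseudogene, coloured by identity to the parent. The copy with most reads has the highest identity or ties for it in 13 of the 14 families, the exception being Rpl17.

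Relative to the parent, most pseudogenes were at a low level. Per kilobase of exon, the level of a pseudogene was a median of 1.76% of its parent's, 57 of the 97 were at 1% or more, and 26 were at 10% or more. Without the length correction, the median was 0.386% of the parent's reads. The parent length is the union of its annotated exons, which lowers the parent's level, and raises the pseudogene's percentage, where exons are rarely used. For Rpl21, that length is 3400 bases against a coding sequence of 483. A percentage above 100 per kilobase can thus go with fewer reads than the parent has.

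Rps10-ps2 was at 295% of the level of Rps10 per kilobase, and in reads at 66.4%, 63.4%, 62.0% and 61.8% of Rps10 in KO2, KO4, WT6 and WT8. Rps10 itself had 8502, 7722, 7939 and 9239 reads. The share of Rps10 was highest in KO2 and lowest in WT8. Per kilobase, Rpl21-ps15 was at 158% of Rpl21, Rpl31-ps8 at 77.1% of Rpl31, Rpl14-ps1 at 69.0% of Rpl14 and Rpl38-ps2 at 55.0% of Rpl38. In reads without the length correction, these 4 were at 22.5%, 17.5%, 27.3% and 21.6% of the parent. The lowest levels among pseudogenes with at least 10 reads were 0.118% for Rpsa-ps1, 0.163% for Rps6-ps1 and 0.179% for Rpsa-ps9. Rpsa-ps1 had 14, 6, 5 and 19 reads in KO2, KO4, WT6 and WT8, and Rpsa-ps9 had 21, 11, 14 and 21.

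No pseudogene passed the test between knockout and wild-type brains at an adjusted p under 0.05. In edgeR's quasi-likelihood test with Benjamini-Hochberg adjustment over all genes, 0 of the 74 tested pseudogenes were higher (background 0% of all genes tested) and 0 were lower (background 0.00637%). The smallest adjusted p of a pseudogene was 0.743. At an unadjusted p under 0.05 there was 1 of 74 (1.35%), against 4.7% of all genes tested. DESeq2 and limma-voom also called 0. The 95% confidence interval of the log2 fold change had a median half-width of 0.83 and included 0 for 73 of the 74. The SE and interval were computed from the statistic of the same test, so that count restates the unadjusted p-values. For the typical pseudogene, an estimate smaller than that half-width has an interval that includes 0 with 2 libraries a genotype. The interval is not adjusted for the number of genes tested, so the half-width is not the detection limit of the adjusted test, which is larger.

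Estimates were below 0 for 60 of the 74 and above 0 for 14, with a median of -0.21 and a range of -1.69 to 0.38. The median over all genes tested was -0.007 and that over 651 other tested pseudogenes was -0.03. The 41 parents, all tested, had a median of -0.21 and were all below 0. None of the parents passed in edgeR's quasi-likelihood test, and 1 had an unadjusted p under 0.05, Rpl38 (log2 fold change -0.31, adjusted p = 0.743). Of the 79 cytosolic ribosomal protein genes, 77 were below 0, 0 passed in edgeR and 7 had an unadjusted p under 0.05. The fold change of a pseudogene was below that of its parent for 36 of 74 and above it for 38, with a median difference of 0.006. Pearson's r between pseudogene and parent was 0.02 over the 74 log2 fold changes. The parents ran only from -0.31 to -0.05, while the pseudogenes' 95% intervals had a median half-width of 0.83. With so narrow a range, this r cannot show whether pseudogene and parent go together gene by gene.

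The median depended on single libraries of both genotypes. It was 0.15 without WT8, -0.04 without KO4, -0.54 without WT6 and -0.47 without KO2, so that its sign turned when WT8 was left out. Both KO libraries were below both WT libraries for 10 of the 74, against 19.4% of all genes tested. Both KO libraries were above both WT libraries for 0, against 20.1% of all genes tested. The other 64 overlapped.

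The estimates farthest from 0 came from pseudogenes with few reads. Rpl21-ps11 had the lowest, -1.69 ± 0.63 (SE), at 5 and 2 reads in the knockout libraries and 11 and 10 in the wild-type ones (unadjusted p = 0.0324, adjusted p = 0.743, edgeR quasi-likelihood test). Its parent Rpl21, for a large-subunit protein, was at -0.19. Both knockout counts were below both wild-type counts, at a depth of 11 reads or fewer. Rps6-ps1 was at -1.18 (11, 5, 16 and 17 reads in KO2, KO4, WT6 and WT8), and its genotypes did not overlap. Rps25-ps1 was at -0.95 (12, 8, 11 and 24) and Rpl35a-ps7 at -0.66 (12, 4, 12 and 11).

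Of the 5 pseudogenes with the smallest unadjusted p, Rps10-ps1 had the most reads, with a log2 fold change of -0.41 ± 0.17 (SE; adjusted p = 0.743, edgeR quasi-likelihood test). Its counts were 353 and 329 in the knockout libraries and 359 and 459 in the wild-type ones, and KO2 and WT6 lay close, at 19.3 and 20.9 CPM. Rpl7-ps7 was at -0.58, with 47, 36, 52 and 60 reads in KO2, KO4, WT6 and WT8. The highest estimates were 0.38 for Rpl3-ps2 (32, 19, 10 and 25 reads) and 0.35 for Rps13-ps4 (12, 16, 15 and 5). In both the libraries of the genotypes overlapped. Rps4x-ps, a copy of the X-linked gene for a small-subunit protein, was at 0.15 (32, 28, 24 and 25), and Rpl19-ps11 at 0.08 (205, 145, 117 and 180).

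KO2 and WT8, a library of each genotype, held the most pseudogene reads. Summed over the 97 pseudogenes, the level was 1590 and 1262 CPM in the knockout libraries KO2 and KO4, and 1322 and 1878 CPM in the wild-type libraries WT6 and WT8. The mean was 1426 ± 232 CPM in knockout and 1600 ± 393 CPM in wild type (SD, n = 2 each; two-sided exact permutation p = 0.667, where 0.333 is the smallest that 2 against 2 can give). In bulk tissue, fewer cells of a type and less RNA per cell cannot be told apart. The pseudogenes took 0.161%, 0.128%, 0.133% and 0.182% of the reads of KO2, KO4, WT6 and WT8.

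The parents summed to 27507, 25214, 26931 and 32970 CPM in the same order. The pseudogenes amounted to 5.78% and 5.0% of the parents in KO2 and KO4, and to 4.91% and 5.70% in WT6 and WT8. KO2 and WT8 were again the high libraries, 1 of each genotype and 1 of each sex. Other pseudogenes summed to 7873, 7013, 6895 and 8452 CPM, with the same 2 libraries on top.

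**Figure D4:**
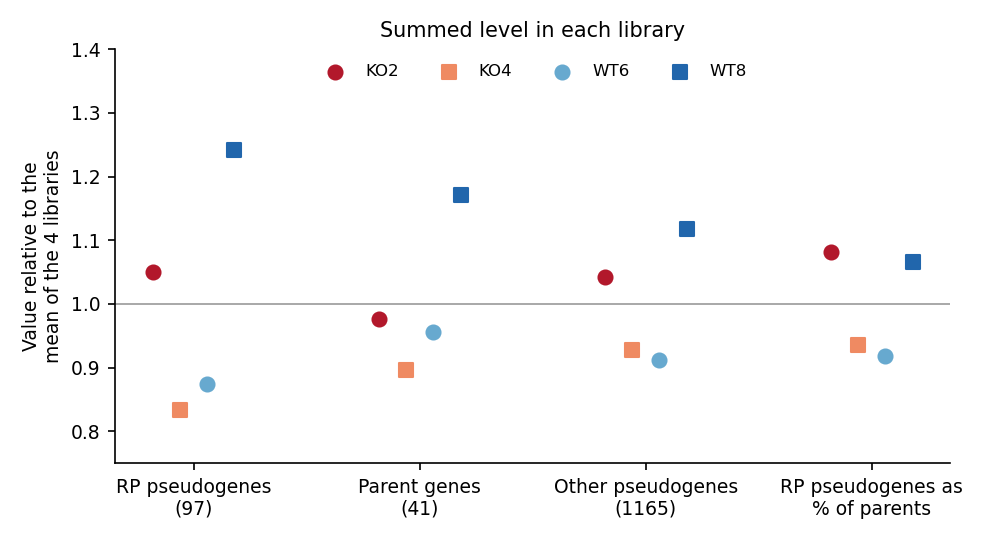
Summed CPM of the 97 ribosomal protein pseudogenes, the 41 parents and 1165 other pseudogenes, and the ribosomal protein pseudogenes as a percentage of the parents, each divided by its mean over the 4 libraries (1 point per library, line at 1, axis not from 0). KO2 and WT8 lie above the line for both pseudogene sums and for the percentage (5.78% and 5.70%), and WT8 alone does for the parents.

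The sums had the same order of libraries in each class of read uniqueness. The 20 pseudogenes with no unique 50-base window summed to 572, 430, 438 and 658 CPM in KO2, KO4, WT6 and WT8. The 54 with unique windows in under 50% of positions summed to 1001, 818, 867 and 1198 CPM. The 23 with at least 50% summed to 17.2, 13.4, 16.2 and 21.9 CPM. Of the tested pseudogenes in these classes, 17 of 18, 39 of 45 and 6 of 11 were higher in KO2 than in WT6 and lower in KO4 than in WT8. The median log2 ratio of KO2 over WT6 was 0.45, 0.30 and 0.09. That of KO4 over WT8 was -0.61, -0.76 and -0.999. From the first class to the last, the KO2 and WT6 difference became smaller and the KO4 and WT8 difference larger. WT8 was highest for 16, 40 and 7 of the tested pseudogenes. The class with at least 50% also had the fewest reads, a median of 6.75, and the difference between classes was not tested.

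Among single pseudogenes, WT8 was the highest library for 63 of the 74 tested (85.1%), against 32.8% of all genes tested, 45.6% of other pseudogenes and all 41 parents. The lowest library was KO4 for 44 (59.5%), against 26.4% of all genes tested, 29.8% of other pseudogenes and 95.1% of the parents. It was WT6 for 28 (37.8%), against 20.7% of all genes tested, 34.9% of other pseudogenes and 4.88% of the parents. Within the pairs, 62 of the 74 (83.8%) were higher in KO2 than in WT6 and lower in KO4 than in WT8. That combination was found in 75.6% of the parents, 48.7% of other pseudogenes and 24.7% of all genes tested. In the pseudogenes the median log2 ratio was 0.39 in the KO2 and WT6 pair and -0.76 in the KO4 and WT8 pair (knockout over wild type). In the parents it was 0.02 and -0.46. As a share of the parent's reads, 63 of the 74 were higher in KO2 than in WT6, 60 were lower in KO4 than in WT8, and 52 did both.

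**Figure D5:**
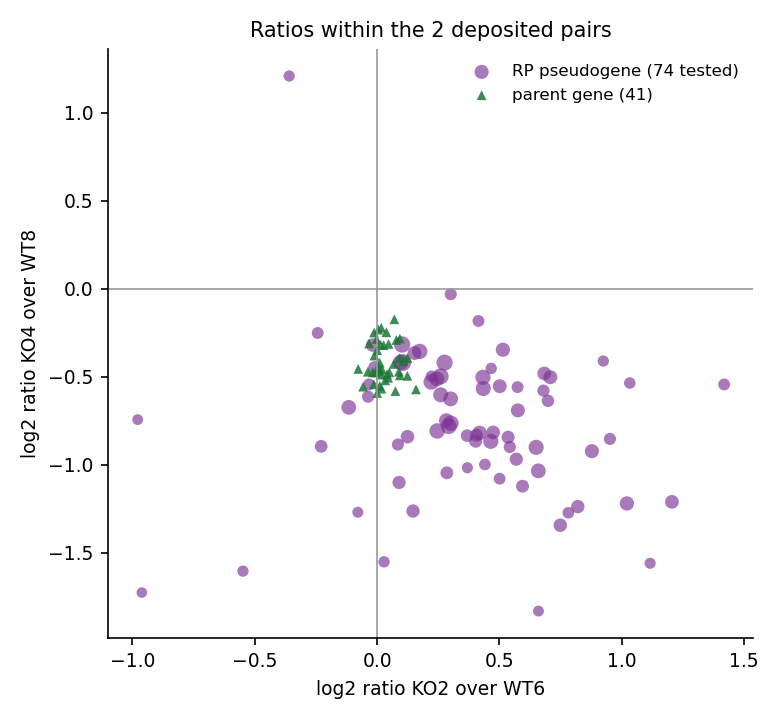
Log2 ratio of KO4 over WT8 against log2 ratio of KO2 over WT6 for the 74 tested pseudogenes and their parents, 1 point per gene, with larger points for pseudogenes with more reads. Most pseudogenes (62 of 74) lie to the right of 0 and below 0, while the parents gather near 0.02 and -0.46.

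The authors' deposited table for each pair compares 1 library with 1 library, so its calls concern those libraries and not the genotypes. At an adjusted p under 0.05 in the authors' deposited table, 30 of the 97 pseudogenes were higher in KO2 than in WT6 (background 9.06% of genes) and 1 was lower (background 9.15%). In the second pair, the authors' deposited table has 1 higher in KO4 (background 25.2%) and 57 lower (background 16.1%). Of the 41 parents, 17 were called higher and 1 lower in KO2, and 0 higher and 41 lower in KO4, in the authors' deposited table. The pseudogenes called higher in the first and lower in the second numbered 28, which is 93.3% of the 30 and 49.1% of the 57 in the authors' deposited table. The same combination was called for 2.82% of all genes (540) and for 17 of the 41 parents in the authors' deposited table. The 1 called lower in KO2 was Rpl18-ps1 and the 1 called higher in KO4 was Rps13-ps4 in the authors' deposited table, both named after their values were seen.

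Markers of red blood cells also differed between libraries. The 7 erythroid markers, all listed, summed to 577, 576, 443 and 996 CPM in KO2, KO4, WT6 and WT8. WT8 was highest here too, while KO2 and KO4 were alike. The progenitor, neuronal, endothelial, microglial, meningeal and muscle markers were also highest in WT8, and those of choroid plexus were highest in WT6. Microglial markers summed to between 20.5 and 25.9 CPM, and the muscle markers Myod1 and Myog were not listed in both tables. Whether the makeup of the tissue, the sex of the embryos or the handling of the paired libraries had a part in the pattern of the pseudogenes was not tested.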

How the data were processed

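The read counts per gene were deposited by the authors as whole numbers in 2 tables of 1 KO and 1 WT library each. The authors' tables also give a CPM, a fold change (linear ratio), its log2 and a p-value with its adjusted value per gene, per the file headers, without naming the test. HTSeq 0.6.0, TopHat2 2.0.12, Bowtie2 2.2.3 and mm9 are named in the submitters' processing notes, but 91.4% of 19117 genes have the GRCm38 position of GENCODE M21, so GRCm38 positions are printed. Strand use and read length are not given in the labels, and pseudogenes that share reads with a parent are uncertain to that extent.

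Tables were joined by gene identifier. The members and gene lists were chosen with earlier results of these data known. Counts were tested in R 4.3.3 with edgeR 4.0.16 (quasi-likelihood, TMM, filterByExpr, genotype as the only term, Benjamini-Hochberg over 15708 genes, threshold 0.05) after a check on simulated counts. TMM factors were 0.971 to 1.01. Log2 ratios within a pair used a prior count of 2. Intervals are at 95%. Alignments used Biopython 1.88 (local, match 1, mismatch -2, gap open -5, gap extend -1). Pseudogenes were named with values if among the 12 with most CPM, the 5 highest and 5 lowest fold changes, the 5 smallest p-values, or the 5 highest and 3 lowest levels relative to the parent at 10 or more reads. Families of 3 or more, parents, H2afy and H2afy2 were named too, and others after their values were seen. The values of 2 pseudogenes that meet this rule are not reported here. DESeq2 1.42.0, limma-voom (limma 3.58.1), other scalings and filters, the deposited pair as a term and each library left out were alternatives.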

Additional observations from a re-analysis of the deposited data

Results flagged for a closer look

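The 2 pairs of libraries lay on opposite sides of no difference. The summed CPM of the ribosomal protein pseudogenes was 1.20 times as high in KO2 as in WT6 and 0.672 times as high in KO4 as in WT8. As a percentage of library reads the ratios were 1.21 and 0.702. As a percentage of the parents' reads they were 1.18 and 0.878, so the directions were opposite relative to the parents too. Each pair has 1 library per genotype, so the difference between the pairs was not tested, and the pairs also differ in sex and in deposited table.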

How the results depend on the processing

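The count of pseudogenes called stayed at 0 under every alternative run, and the 46 named log2 fold changes (25 pseudogenes, 21 parents) kept their direction under each alternative that kept all 4 libraries (39 of the 46 were tested with a filter at a mean of 1 CPM). Over all genes, where 1 gene passed, 2 passed with library totals alone, 4 with DESeq2 and 2 with the deposited pair as a term, and 0 to 104 with 1 library left out (0 without WT6, 2 without KO4, 104 without WT8). The median of the parents was between -0.39 (without WT6) and -0.032 (without WT8). The median level relative to the parent was 0.386% from reads without length. The causes were not tested. The KO over WT ratio of the pseudogenes' share of reads, 0.917, was between 0.792 and 1.09 with 1 library left out, an alternative chosen after seeing the data. The replicate numbers are not shared by the genotypes, so the paired fit used the deposited pair, which is also matched for sex, as a term. It called 0 pseudogenes, and their median log2 fold change was -0.18.

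With 1 library left out, the lone library of a genotype is assumed to vary like the others. The sign of 23 named log2 fold changes then turned, 21 of them without WT8, 6 without KO4, 2 without WT6 and 2 without KO2. Their lowest and highest values were as follows. For pseudogenes with most reads they were -0.32 and 0.011 (Rps10-ps2), -0.25 and 0.042 (Rpl14-ps1), -0.28 and 0.15 (Rps16-ps2), -0.35 and 0.13 (Rpl31-ps8), -0.54 and 0.087 (Rpl17-ps10), -0.43 and 0.13 (Rpsa-ps10), -0.54 and 0.11 (Rpl3-ps1), -0.64 and 0.097 (Rps27a-ps2), -0.25 and 0.063 (Rpl21-ps15), -0.29 and 0.25 (Rps6-ps4) and -0.59 and 0.24 (Rpl28-ps1). For other pseudogenes they were -0.36 and 0.26 (Rpl38-ps2), -0.24 and 0.49 (Rpl19-ps11), -0.17 and 1.25 (Rpl3-ps2), -0.81 and 0.11 (Rpsa-ps9), -0.18 and 1.27 (Rps13-ps4) and -1.14 and 0.90 (Rpsa-ps1). For parents they were -0.27 and 0.059 (Rpl14), -0.20 and 0.020 (Rps6), -0.29 and 0.034 (Rps16), -0.36 and 0.0016 (Rpl21), -0.44 and 0.037 (Rpl35a) and -0.23 and 0.0081 (Rpl7). Depth limits the pseudogenes with few reads, and 23 of the 97 did not pass the filter on low counts.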

Other observations

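Read counts of pseudogenes inside introns were often far from those of the host gene. Of the 97 pseudogenes, 38 lay in an intron of an annotated gene and had a median of 59.3 reads, against 28.0 in the other 59. Their median identity to the parent was also higher, 99.34% against 98.88%, and the difference in reads was not tested. Rps16-ps2 had a mean of 1954 reads where its host Adgrd1, an adhesion receptor gene, had 4.0. Rpl17-ps5 had a mean of 369 reads in 6030443J06Rik, which had 2.25. Rpl14-ps1 had 2390 reads in Trpm4, a cation channel gene with 194.5, and Rpl28-ps1 had 630 in Zranb3, a DNA repair gene with 194.0. Most hosts with counts, however, had more reads than the pseudogene inside them. Rpl36a-ps2 had 473 reads in Ddah1, an enzyme gene with 2833, and Rpl36-ps2 had 26.8 reads in Abr, with 4382. Rps16-ps2, Rpl28-ps1 and Rpl36a-ps2 have no unique 50-base window.

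In 1 pseudogene the annotated strand was opposite to the sense of the parent. Rpl13-ps1 (chromosome 11, 85111126 to 85111793) matched Rpl13 in antisense with 92.1% identity. It had 7, 6, 3 and 2 reads in KO2, KO4, WT6 and WT8, was below the filter on low counts and was not tested.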
